A study of Homo sapiens with 12 samples.

Results

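The genes described here are 251 protein-coding genes whose RNA differed from parental controls in opposite directions in a pair of triple-negative breast cancer cell lines. In libraries labelled ERK5-ko, they had less RNA than controls if the cells were MDA-MB-231 and more if the cells were Hs-578T. Members were chosen by these measured values. Genes were first required to have an RPKM (reads scaled to the gene's length in kilobases and to the library total) of at least 0.5 in at least 2 of 12 libraries, which left 13737 genes. The mean log2(RPKM + 0.5) of the 2 libraries of a group was then compared to that of the parental controls of the same line. Genes at least 1.5-fold lower on this scale in the first line (721 genes, 5.25%) and at least 1.5-fold higher in the second (1319 genes, 9.6%) were kept, which left 1.83% of those tested. The reverse combination held 103 genes, while 41 genes were past the threshold upward in both lines and 57 downward in both.

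The study asked what loss or activation of ERK5, a mitogen-activated protein kinase encoded by MAPK7, does in these cells. RNA was sequenced from 6 groups of 2 libraries, namely parental controls, cells labelled ERK5-ko and cells labelled MEK5DD in each of the 2 lines. ERK5-ko cells were made with CRISPR/Cas9 and guides against MAPK7, and MEK5DD is a mutant MEK5 that stays active and phosphorylates ERK5. All groups were established human lines grown to 70% confluence with no drug treatment named in the labels. The MDA-MB-231 ERK5-ko cells came from a single surviving clone. Several Hs-578T clones were obtained, and which of them was sequenced is not given in the sources used here. Replicates are consecutive passages of a culture, so the spread between them may be partly technical. Parental controls carried passage numbers 29 and 30 in MDA-MB-231 and 83 and 84 in Hs-578T, whereas all other groups lay between 7 and 11. The other groups were derived from the parental lines, so their passages may be counted from another start. Passage and group therefore cannot be told apart in any comparison with parental controls. In bulk RNA, fewer cells of a kind and less RNA per cell also cannot be told apart.

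The library totals, recovered from the RPKM values, lay between 20248162 and 27791195 reads, of which 92.0% to 94.5% were on listed genes. MAPK7 (ENSG00000166484.19, chr17:19377721-19383544 of GRCh38) had an RPKM of 13.3 and 14.3 in MDA-MB-231 parental controls and of 16.3 and 17.8 in ERK5-ko-labelled libraries. In Hs-578T it had 14.0 and 16.0 in parental controls against 17.8 and 18.1 in ERK5-ko-labelled libraries. No ERK5-ko-labelled library thus had less MAPK7 RNA than a parental control of its line, and the directions below refer to the labels. A knockout made by cutting the gene need not lower its RNA, and ERK5 protein was not analysed here. MAP2K5, the gene of MEK5, had 12.9 and 13.6 in MDA-MB-231 parental controls and 188 and 184 in MEK5DD libraries, against 14.6 and 16.9 and then 21.3 and 23.8 in Hs-578T. ESR1 (0.12 at most), PGR (0.348 at most) and KRT5 (0.252 at most) were near 0 throughout, and VIM lay between 1598 and 4067. Of the other breast markers, ERBB2 lay between 27.8 and 56.8, EGFR between 26.0 and 112 and GATA3 between 3.77 and 9.34. EPCAM ranged from 0.0365 to 25.7, KRT14 from 0 to 147, FOXA1 from 0 to 1.85 and CDH1 from 0 to 1.16. The leukocyte gene PTPRC (0.396 at most) and the endothelial gene CDH5 (0.026 at most) were near 0. Of the other blood and endothelial markers, CD68 lay between 23.2 and 108, PECAM1 between 0.194 and 6.48 and CD14 between 0.341 and 2.15, and CD3E, HBB and VWF were at 0.214 at most. Of 51 genes chosen for a high RPKM in MDA-MB-231 parental controls and at most 0.1 in Hs-578T parental controls, 0 reached an RPKM of 1 in any Hs-578T library. Of 120 genes with the reverse pattern, 0 did so in parental or ERK5-ko libraries of MDA-MB-231, and 3 did so in each MDA-MB-231 MEK5DD library. A lower cut was 1% of the parental mean of the line in which a gene was high. Of the 51, 5 passed it in each Hs-578T ERK5-ko-labelled library and 1 in each Hs-578T MEK5DD library. Of the 120, 2 passed it in each MDA-MB-231 ERK5-ko-labelled library, and 5 and 7 in the MEK5DD libraries.

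A large share of the members act in cell division. A dividing cell copies its DNA in S phase with helicases, polymerases and their loading factors, and in G2 and M phase condenses its chromosomes, builds a spindle and attaches it to the kinetochores. Cyclin-dependent kinases with their cyclins, the Aurora and Polo kinases and the spindle checkpoint order these steps. Many of the genes are transcribed mainly in dividing cells, and their RNA is widely used as a measure of how fast a tumour cell population divides. Genes of late cell cycle phases often carry CCAAT boxes and a cell cycle homology region (CHR element) near the transcription start.

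Promoters of 4 members are shown because they carry both elements and belong to genes on which the results below turn, a proliferation marker, the mitotic kinase, a topoisomerase and a kinetochore protein. They were chosen after their values were known, from windows with at least 1 CHR element and 2 CCAAT boxes. CDK1 has another window, not shown, with 1 of each. Each is the RefSeq window of 300 bases (GRCh38.p14, 250 before and 50 after an annotated start), 5' to 3' on the strand of the gene. Capitals mark TTTGAA, the CHR element, and CCAAT, on either strand, so that TTCAAA and ATTGG are marked too. MKI67 lies at chr10:128126374-128126673 on the minus strand, CDK1 at chr10:60778228-60778527 on the plus strand, TOP2A at chr17:40417847-40418146 on the minus strand and CENPF at chr1:214602945-214603244 on the plus strand. In MKI67 the second TTTGAA shares bases with the adjoining ATTGG.
MKI67: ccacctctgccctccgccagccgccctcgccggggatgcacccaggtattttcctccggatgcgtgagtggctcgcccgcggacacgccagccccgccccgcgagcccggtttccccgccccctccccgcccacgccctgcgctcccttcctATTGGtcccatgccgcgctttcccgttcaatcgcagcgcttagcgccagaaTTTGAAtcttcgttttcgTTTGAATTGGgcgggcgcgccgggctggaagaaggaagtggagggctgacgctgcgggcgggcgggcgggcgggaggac
CDK1: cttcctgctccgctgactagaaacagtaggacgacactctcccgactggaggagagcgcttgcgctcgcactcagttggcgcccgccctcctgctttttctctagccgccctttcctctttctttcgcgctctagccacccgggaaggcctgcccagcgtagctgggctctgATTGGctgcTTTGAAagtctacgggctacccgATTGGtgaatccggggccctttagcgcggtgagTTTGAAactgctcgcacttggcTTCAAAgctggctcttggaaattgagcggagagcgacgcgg
TOP2A: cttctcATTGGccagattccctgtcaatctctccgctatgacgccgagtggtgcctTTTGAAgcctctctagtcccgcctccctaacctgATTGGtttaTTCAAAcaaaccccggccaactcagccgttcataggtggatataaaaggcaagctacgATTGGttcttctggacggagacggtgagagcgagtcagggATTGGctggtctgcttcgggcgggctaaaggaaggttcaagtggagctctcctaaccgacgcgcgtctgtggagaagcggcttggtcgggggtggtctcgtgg
CENPF: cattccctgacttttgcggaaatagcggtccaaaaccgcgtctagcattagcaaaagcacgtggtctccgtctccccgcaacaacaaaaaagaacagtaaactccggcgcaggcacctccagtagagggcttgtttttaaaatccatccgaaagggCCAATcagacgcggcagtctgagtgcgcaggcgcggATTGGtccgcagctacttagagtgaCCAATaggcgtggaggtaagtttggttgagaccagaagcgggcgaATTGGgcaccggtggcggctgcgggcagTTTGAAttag

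The windows held between 1 (CENPF) and 3 (CDK1) CHR elements and between 2 and 4 CCAAT boxes. In all, 202 of 251 members matched a gene of the promoter table, with 264 windows, since a gene may have several starts. TTTGAA was found on either strand in 33.7% of member windows, against 10.6% of the 16036 windows of all tested genes and 15.2% of all 35116 windows of that length. CCAAT was found in 54.5% of member windows, 34.6% of those of tested genes and 34.6% of all windows. Of the matched members, 82 held TTTGAA in at least 1 window, 127 held CCAAT and 61 held both in 1 window.

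The letters were not spread evenly over the members. TTTGAA stood in 50.8% of the windows of the members in a cell division list (described below) and in 17.6% of those of the other members. In cell division genes that were tested but are not members it stood in 13.4%. CCAAT stood in 68.8%, 41.2% and 51.5% of the same windows. The E2F letters TTCGCGC showed another order, with 8.59% in cell division members, 2.94% in other members and 11.2% in cell division genes that are not members. The AP-1 letters TGANTCA (N is any base) stood in 1.56% of the windows of cell division members and in 11.8% of those of the other members, against 5.38% in all tested genes. Other letters also differed between the members, with 32.0% of the windows of cell division members, 16.2% of those of other members and 25.8% of those of all tested genes for CCGGAA (ETS). The shares in the same order were 5.47%, 1.47% and 2.66% for TGACGTCA (CRE), and 3.12%, 8.82% and 6.58% for the TATA box letters TATAAA. Over all member windows, CCACCC (KLF) stood in 37.1% (38.3% in all tested genes), CACCTG (ZEB E-box) in 17.0% (18.6%) and CATTCC (TEAD) in 9.47% (11.6%). An NF-kB site stood in 1.52% (2.56%), and a MEF2 core in 1.52% (2.0%). The letters of the CHR element, the CCAAT box and E2F were added after the members were known. These are shares of matching letters in a window and do not show that a factor was bound.

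**Figure D1:**
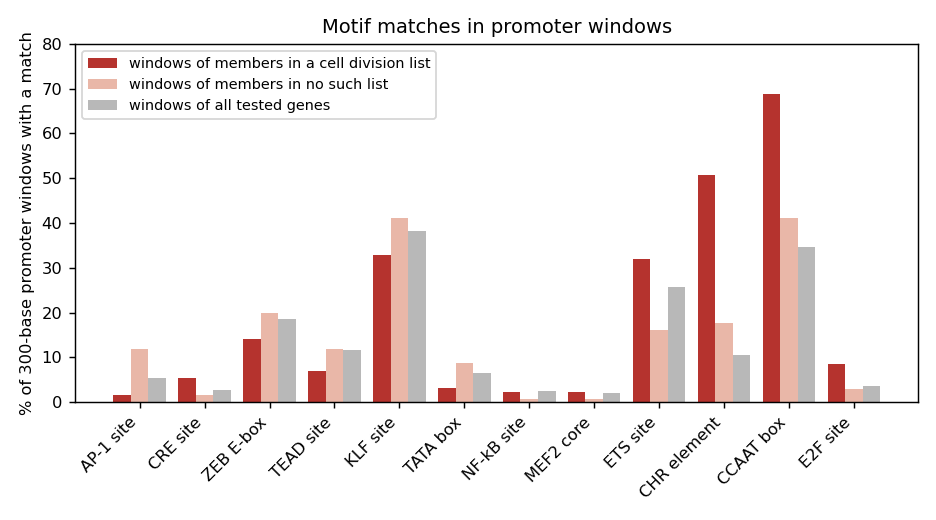
Share (%) of promoter windows of 300 bases that hold each set of motif letters on either strand, for members in a cell division list (dark red), members in no such list (light red) and all tested genes (grey). The CHR element stood in 50.8%, 17.6% and 10.6% of windows, and the CCAAT box in 68.8%, 41.2% and 34.6%.

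By the rule, each member was past the threshold in both lines. The difference between ERK5-ko-labelled libraries and parental controls, on the log2(RPKM + 0.5) scale, ranged from -2.42 to -0.59 in MDA-MB-231 with a median of -0.76, against a median of -0.04 over all tested genes. In Hs-578T it ranged from 0.59 to 3.91 with a median of 0.87, against 0.01 over all tested genes. In MDA-MB-231 both ERK5-ko-labelled libraries lay below both parental controls in all 251 members (38.5% of all tested genes), and in Hs-578T both lay above them in all 251 (35.6%). A fit with limma (adjusted p below 0.05, with a fold below 0.5 for lower and above 1.5 for higher) called 37 members lower in MDA-MB-231 (1.07% of all tested genes) and 247 higher in Hs-578T (9.35%). It called 0 members higher in the former (2.8%) and 0 lower in the latter (3.27%). The fold limit of 0.5 for lower is stricter than the 1.5-fold threshold of the rule. At an adjusted p below 0.05 alone, 241 members were lower in MDA-MB-231 (10.4% of all tested genes) and 247 higher in Hs-578T (19.7%). The rule used these same values, so the counts carry no support. The members nearest inside the threshold were CCDC18 (-0.88 and 0.59), RAD54L (-0.59 and 0.92) and FANCM (-0.59 and 0.87). The genes nearest outside it were PLAU (-1.33 and 0.58), HAUS8 (-0.58 and 0.60) and CCDC88A (-0.58 and 0.95).

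**Figure D2:**
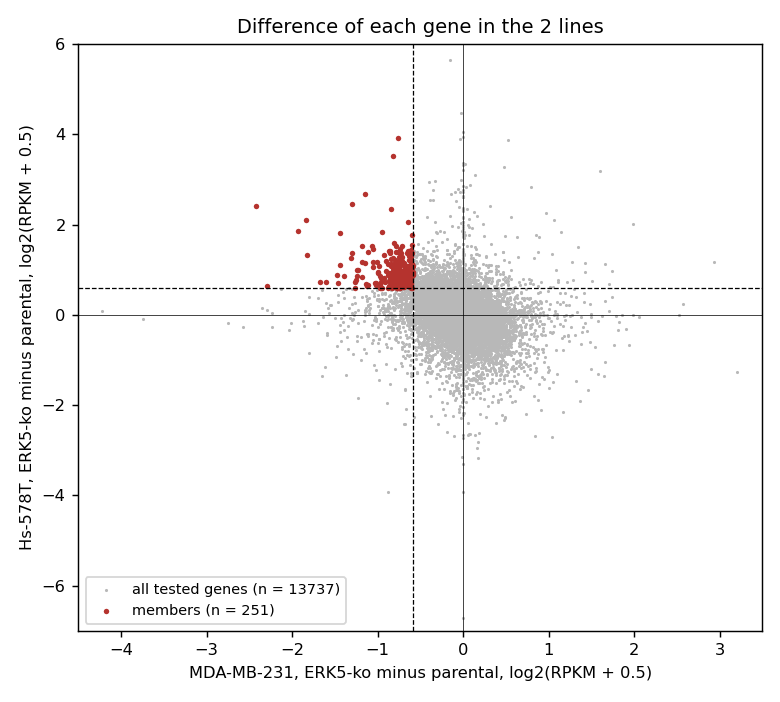
Difference between ERK5-ko-labelled libraries and parental controls in MDA-MB-231 (x axis) and Hs-578T (y axis), in log2(RPKM + 0.5), for the 13737 tested genes (grey) and the 251 members (red). Dashed lines mark the 1.5-fold thresholds that define the members in the upper left corner.

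The level of the members differed between the lines already in parental controls. Their median RPKM was 20.01 and 20.05 in the MDA-MB-231 parental libraries and 10.9 and 10.8 in those labelled ERK5-ko. In Hs-578T it was 6.31 and 6.92 in parental controls and 13.4 and 14.6 in ERK5-ko-labelled libraries. The members thus lay high in the first line and low in the second in parental controls, and in ERK5-ko-labelled libraries the medians of the lines were close and in the reverse order. The median over all tested genes lay between 12.1 and 15.6 in the 12 libraries. The mean of the parental controls was lower in Hs-578T than in MDA-MB-231 for 217 members (median difference -1.27, all tested genes -0.19), and in ERK5-ko-labelled libraries for 73 members (median difference 0.43, all tested genes -0.10).

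The MEK5DD libraries, which entered the rule through the filter on low RPKM only, stood at the ends of this range. All 251 members also passed that filter in the other 8 libraries alone. The median RPKM of the members was 24.6 and 22.7 in MDA-MB-231 MEK5DD and 4.48 and 5.79 in Hs-578T MEK5DD. Of the 251 members, 166 had their highest group mean in MDA-MB-231 MEK5DD and 166 had their lowest in Hs-578T MEK5DD. The rule partly fixed these counts in advance. It kept ERK5-ko-labelled libraries of the first line and parental controls of the second from being highest. Likewise, parental controls of the first line and ERK5-ko-labelled libraries of the second could not be lowest. Shares over all tested genes were not computed for this, so the counts carry no support. The members took between 1.88% and 1.90% of the reads in MDA-MB-231 parental controls, 1.06% to 1.11% in ERK5-ko-labelled libraries and 2.35% to 2.43% in MEK5DD libraries. In Hs-578T these shares were 0.775% to 0.814%, 1.48% to 1.58% and 0.584% to 0.708%. The median member had 218 to 1368 reads per library, and between 0 and 11 members per library had 3 reads or fewer. The difference of such a member depends on the 0.5 that was added to each RPKM.

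**Figure D3:**
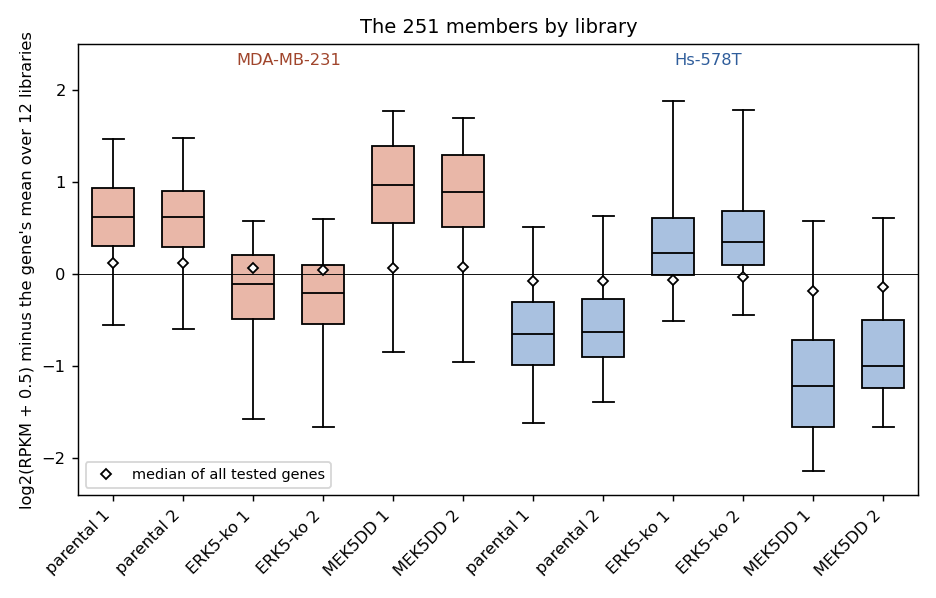
Level of the 251 members in each of the 12 libraries, as log2(RPKM + 0.5) minus the mean of the gene over all libraries. Boxes span the quartiles with the median as a line, whiskers span the 5th to 95th percentiles, and diamonds are the median of all tested genes. The MDA-MB-231 boxes are lowest in ERK5-ko-labelled libraries and the Hs-578T boxes are highest there.

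A list of 47 tested cell cycle genes, chosen with earlier results of these data known, held 20 members, namely AURKA, AURKB, BUB1, BUB1B, CCNA2, CCNB1, CDC25A, CDC25C, CDK1, CENPA, CENPE, CENPF, FOXM1, KIF11, KIF20A, MCM4, MKI67, NDC80, PLK1 and TOP2A. Over the 47 genes, the median difference between ERK5-ko-labelled libraries and parental controls was -0.59 in MDA-MB-231 (-0.04 over all tested genes) and 0.70 in Hs-578T (0.01). In MDA-MB-231, limma called 2 of the 47 lower and 1 higher with the fold thresholds (1.07% and 2.8% of all tested genes), and at an adjusted p under 0.05 alone 29 were lower and 3 higher (10.4% and 6.91% of all tested genes). In Hs-578T, 35 were called higher and 0 lower with the fold thresholds (9.35% and 3.27%), and 43 were higher and 2 lower at an adjusted p under 0.05 alone (19.7% of all tested genes in each direction). Since 20 of the 47 are members chosen by these values, the counts carry no support.

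Of the 27 cell cycle genes that are not members, 19 lay below 0 in MDA-MB-231 and above 0 in Hs-578T. The same share over all tested genes was not computed, so this count carries no support. The MDA-MB-231 threshold alone was missed by 15 of the 27, among them the transcription factor gene E2F1 (-0.14 and 1.31), the replicative helicase gene MCM2 (-0.30 and 0.998) and the helicase loading factor gene CDC6 (-0.46 and 1.21). The Hs-578T threshold alone was missed by 4 (BIRC5, CCNB2, CDC20 and TTK), which were picked out after their values were seen. CDKN1A, the gene of the cyclin-dependent kinase inhibitor p21, had 0.66 in both lines.

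MKI67 (ENSG00000148773.12, chr10:128096659-128126385) encodes the Ki-67 protein that coats mitotic chromosomes and is widely used as a proliferation marker. Its protein was not analysed here. It had an RPKM of 59.2 and 57.0 in MDA-MB-231 parental controls, 27.1 and 23.7 in ERK5-ko-labelled libraries and 79.8 and 74.3 in MEK5DD libraries. In Hs-578T it had 4.97 and 11.2, then 22.0 and 23.3, then 3.43 and 7.01. The groups labelled ERK5-ko did not overlap the parental controls in either line, which held for all 251 members. Parental and MEK5DD libraries of Hs-578T did overlap. The differences between ERK5-ko-labelled libraries and parental controls were -1.18 and 1.53.

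CENPF (ENSG00000117724.12, chr1:214603195-214664588), the gene of a large kinetochore protein, followed the same order of group means. It had 119 and 105 in MDA-MB-231 parental controls, 59.4 and 44.8 in ERK5-ko-labelled libraries and 166 and 155 in MEK5DD libraries. In Hs-578T it had 14.2 and 31.8, then 53.2 and 60.9, then 8.66 and 21.4. Replicate 1 was the lower library in each of the 3 Hs-578T groups.

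CDK1 (ENSG00000170312.15, chr10:60778331-60794852), the kinase that drives entry into mitosis, had 117 and 112 in MDA-MB-231 parental controls, 69.7 and 71.4 in ERK5-ko-labelled libraries and 147 and 132 in MEK5DD libraries. In Hs-578T it had 44.2 and 31.1, then 71.2 and 78.1, then 35.6 and 30.3, so that parental and MEK5DD libraries overlapped. Its cyclin gene CCNB1 (chr5:69167010-69178245) was among the most abundant members, with 265 and 268, then 154 and 170, then 382 and 367 in MDA-MB-231. In Hs-578T CCNB1 had 166 and 128, then 230 and 251, then 76.3 and 78.5, with no overlap between the 3 groups.

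TOP2A (ENSG00000131747.14, chr17:40388516-40417950), which untangles replicated DNA, had 394 and 403 in MDA-MB-231 parental controls, 235 and 203 in ERK5-ko-labelled libraries and 462 and 405 in MEK5DD libraries. In Hs-578T it had 142 and 185, then 240 and 268, then 58.5 and 94.998. CDC25A (ENSG00000164045.11, chr3:48157146-48188402), a phosphatase that activates cyclin-dependent kinases, was scarce in Hs-578T with 1.88 and 2.25 in parental controls, 5.85 and 6.403 in ERK5-ko-labelled libraries and 1.63 and 1.81 in MEK5DD libraries. Its MDA-MB-231 values were 16.0 and 15.3, then 8.25 and 8.53, then 21.4 and 18.8. Both genes were highest in MDA-MB-231 MEK5DD and lowest in Hs-578T MEK5DD.

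The members were then grouped by role, with role lists that were written after the members were known. Counts of members in these lists therefore carry no support, and 1.83% of all tested genes were members. Between 7 and 17 members fell in each cell division role. Of 34 tested kinesin genes, whose products are motors on microtubules, 12 were members, with differences between -1.25 (KIF15) and -0.63 in MDA-MB-231 and between 0.65 and 1.18 in Hs-578T. The 12 were KIF11, KIF14, KIF15, KIF18A, KIF18B, KIF20A, KIF20B, KIF23, KIF24, KIF2C, KIF4A and KIFC1, most of them motors of the mitotic spindle. Over the 34 kinesin genes the median difference was -0.31 in MDA-MB-231 against 0.41 in Hs-578T.

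At the kinetochore, the structure that joins a chromosome to the spindle, 7 of 19 tested CENP genes were members (CENPA, CENPE, CENPF, CENPH, CENPI, CENPN and CENPO). A further 14 of 26 kinetochore and checkpoint genes were members, among them BUB1, BUB1B, MAD2L1, NDC80, NUF2, ZWINT and the cohesin protectors SGOL1 and SGOL2. Their differences lay between -0.86 and -0.65 in MDA-MB-231 and between 0.67 and 1.42 in Hs-578T. BUB1, a checkpoint kinase, had 136 and 137, then 80.6 and 73.7, then 147 and 137 in MDA-MB-231, and 29.7 and 34.5, then 48.7 and 54.3, then 15.8 and 20.8 in Hs-578T, in the order parental, ERK5-ko and MEK5DD. The groups of BUB1 did not overlap within a line, although 1 MDA-MB-231 MEK5DD library lay close to the parental controls.

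Among mitotic kinases, cyclins and phosphatases, 17 of 22 tested genes were members, the kinase genes AURKA, AURKB, PLK1, PLK4, NEK2, PBK and CIT included. AURKA had 87.1 and 85.9, then 53.9 and 52.4, then 129 and 128 in MDA-MB-231, and 32.8 and 32.5, then 57.0 and 63.6, then 14.7 and 18.8 in Hs-578T. The 3 groups of AURKA in each line did not overlap. Of 18 spindle and cytokinesis genes, 15 were members (for example ANLN, ASPM, ECT2, PRC1 and TPX2), and of 14 centriole and centrosome genes 10 were (for example CEP152, PCNT and STIL). Condensin, cohesin and topoisomerase II genes gave 9 of 16, with both topoisomerase genes TOP2A and TOP2B and the condensin genes SMC2, SMC4, NCAPG, NCAPG2 and NCAPH.

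Genes of DNA synthesis and repair were members as well. Of 37 replication genes, 14 were members, including MCM4 and MCM10, GINS2 and GINS4, and the checkpoint adaptor gene CLSPN. MCM4 had 170 and 173, then 114 and 113, then 197 and 185 in MDA-MB-231, and 101 and 98.4, then 204 and 220, then 66.7 and 76.6 in Hs-578T, with no overlap between groups of a line. Of 31 repair helicase, polymerase and Fanconi genes, 17 were members, among them BLM, BRIP1, FANCD2, FANCI, FANCM, POLQ and XRCC3. FANCD2 (ENSG00000144554.10, chr3:10026414-10101930), which is ubiquitinated at stalled replication forks, had 15.3 and 15.2, then 6.82 and 6.35, then 18.1 and 16.7 in MDA-MB-231, and 8.62 and 7.60, then 17.8 and 19.01, then 4.504 and 5.25 in Hs-578T. Chromatin and nuclear lamina genes gave 8 of 15, including the maintenance methyltransferase gene DNMT1 and HELLS.

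**Figure D4:**
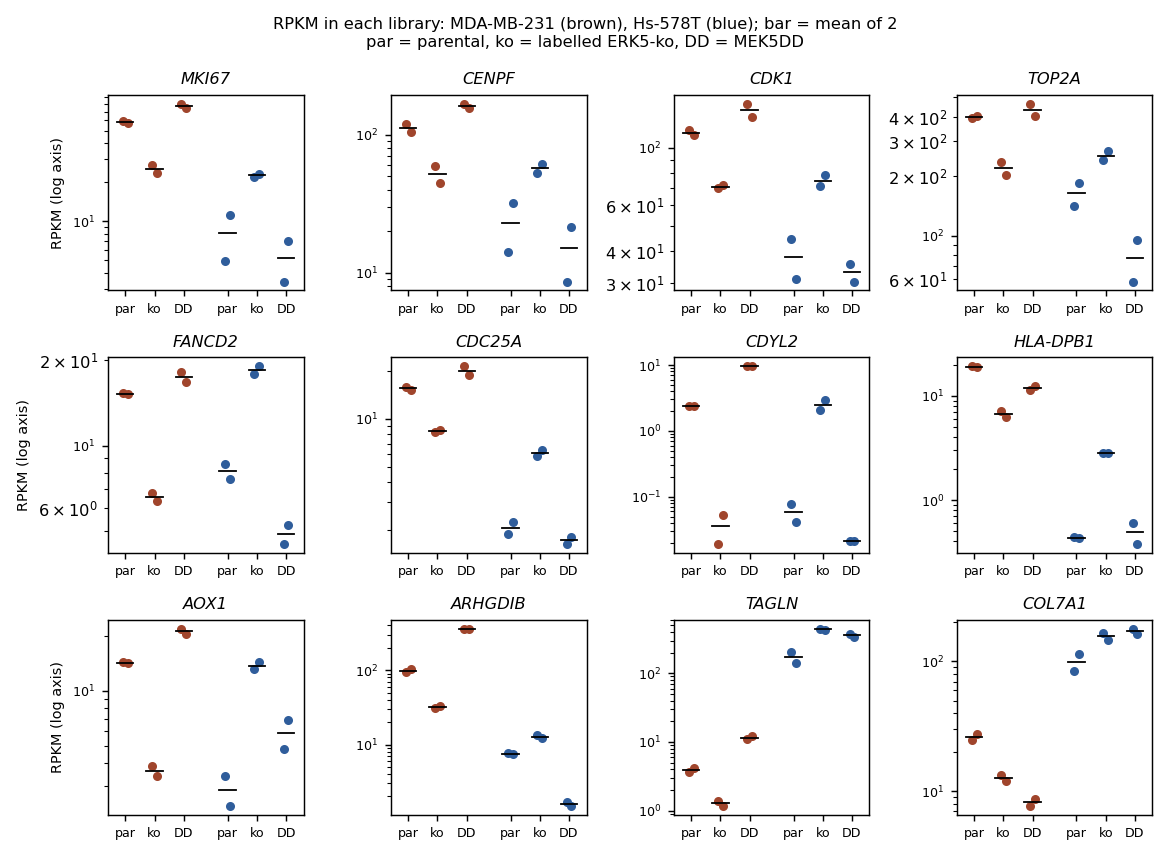
RPKM in each library (log axis) of 12 members, with MDA-MB-231 in brown and Hs-578T in blue. Points are the 2 libraries of a group and bars their mean, with par for parental, ko for ERK5-ko-labelled libraries and DD for MEK5DD. The ko points lie below par in MDA-MB-231 and above par in Hs-578T in each panel, while the DD points differ between genes.

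The cell division lists held 246 of the 13737 tested genes. All but the cell cycle list were written after the members were known, so the count of members in them carries no support. In all, 123 members belonged to at least 1 of these lists and 128 to none. The members with the largest differences in both lines were mostly in the latter group. CDYL2 (ENSG00000166446.14, chr16:80597906-80804329), a chromodomain protein gene, had 2.37 and 2.39 in MDA-MB-231 parental controls, 0.0193 and 0.0524 in ERK5-ko-labelled libraries and 9.541 and 9.502 in MEK5DD libraries. In Hs-578T it had 0.0764 and 0.0421, then 2.06 and 2.95, then 0.0215 and 0.0213. The low groups rest on 1 to 4 reads per library, whereas the ERK5-ko-labelled libraries of Hs-578T had 124 and 164 reads. Its differences of -2.42 and 2.41 therefore depend on the added 0.5.

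AOX1 (ENSG00000138356.13, chr2:200585868-200677064), aldehyde oxidase, had 14.4 and 14.2, then 3.87 and 3.41, then 22.0 and 20.6 in MDA-MB-231, and 3.39 and 2.33, then 13.1 and 14.4, then 4.79 and 6.88 in Hs-578T. Its MEK5DD libraries lay above parental controls in both lines. MDFI (chr6:41636882-41654246), which encodes an inhibitor of myogenic transcription factors, showed the other order, with MEK5DD libraries below parental controls in both lines. MDFI had 2.47 and 4.04, then 0.640 and 0.312, then 0.693 and 0.441 in MDA-MB-231, and 0.583 and 0.483, then 3.77 and 2.75, then 0.439 and 0.217 in Hs-578T.

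Of 10 tested HLA class II genes, which present peptides to T cells, the adjoining HLA-DPA1 and HLA-DPB1 were members (20%, against 1.83% of all tested genes). This list too was written after the members were known, so the count carries no support. HLA-DPA1 (ENSG00000231389.7, chr6:33064569-33080775) had 29.8 and 31.0, then 10.7 and 13.7, then 13.5 and 13.2 in MDA-MB-231, and 0.353 and 0.455, then 3.62 and 5.42, then 0.233 and 0.295 in Hs-578T. HLA-DPB1 (ENSG00000223865.10, chr6:33075926-33087201) had 19.2 and 18.8, then 7.10 and 6.29, then 11.4 and 12.3 in MDA-MB-231, and 0.439 and 0.430, then 2.80 and 2.80, then 0.605 and 0.380 in Hs-578T. The pair overlaps on opposite strands, and whether the counting used strand is not stated, so their reads cannot be fully separated. Over the 10 class II genes the median difference was -1.07 in MDA-MB-231 against 0.11 in Hs-578T.

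Other members with large differences were TAGLN, CES1, SLC4A8 and ADAMTS17. TAGLN (chr11:117199321-117204782), an actin-binding protein of contractile cells, was scarce in MDA-MB-231 with 3.62 and 4.11, then 1.39 and 1.17, then 11.1 and 12.1, and abundant in Hs-578T with 201 and 143, then 450 and 424, then 380 and 334. CES1 (chr16:55802851-55833337), a carboxylesterase best known from liver, had 0.593 and 0.890, then 0.0406 and 0.0734, then 0.0381 and 0.033 in MDA-MB-231, and 0.401 and 0.619, then 5.41 and 6.55, then 1.13 and 1.03 in Hs-578T. The low MDA-MB-231 groups of CES1 rest on 1 or 2 reads per library. SLC4A8, a sodium bicarbonate transporter, differed by -1.19 and 1.17, and ADAMTS17, a secreted metalloprotease, by -1.44 and 1.10.

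In Hs-578T the differences of some members were far larger than in MDA-MB-231, and 4 of them were picked out after their values were seen. CLIC2, which encodes an intracellular channel protein, had 4.53 and 3.97, then 2.31 and 2.29, then 1.92 and 2.096 in MDA-MB-231, and 1.23 and 0.907, then 22.1 and 24.0, then 1.18 and 0.958 in Hs-578T. IL7R, the receptor gene of interleukin 7, had 7.80 and 7.90, then 4.43 and 4.002, then 8.86 and 7.40 in MDA-MB-231, and 2.03 and 2.02, then 23.8 and 34.5, then 0.749 and 1.96 in Hs-578T. Both genes were higher in ERK5-ko-labelled libraries of Hs-578T than in any other library. TNC, the gene of the matrix glycoprotein tenascin C, instead had its highest values in MDA-MB-231 MEK5DD, with 18.3 and 20.6, then 12.3 and 10.9, then 105 in both libraries. Its Hs-578T values were 2.30 and 3.56, then 9.51 and 8.84, then 10.5 and 11.9. EDA, a ligand of the tumour necrosis factor family, had 5.16 and 5.82, then 3.08 and 3.59, then 9.61 in both libraries in MDA-MB-231, and 0 and 0.152, then 1.95 and 1.78, then 0.13 and 0.077 in Hs-578T.

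The other lists held few members. Collagen genes gave 2 of 29 (COL7A1 of anchoring fibrils and COL17A1 of hemidesmosomes), keratin genes 1 of 17 (KRT81), cytokine genes 1 of 30 (IL11), contractile genes 1 of 18 (TAGLN), interferon response genes 1 of 50 (DDX58, the gene of the RNA sensor RIG-I) and genes of semaphorin and related guidance 1 of 57 (SLIT2). IL11 had 6.32 and 7.25, then 1.21 and 0.779, then 8.63 and 7.96 in MDA-MB-231, and 11.9 and 10.2, then 18.4 and 16.7, then 27.0 and 27.9 in Hs-578T. Of 435 tested ZNF genes, a large family of zinc finger proteins, 7 were members (1.61%). Of 11 tested genes of the ERK5 pathway, MAPK7 and MAP2K5 included, 0 were members. KRT81 shares near-identical sequence with neighbouring hair keratin genes, and its reads are uncertain for that reason.

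The MEK5DD libraries gave a test between the lines that does not use the ERK5-ko differences. They shared the filter on low RPKM with the rule, but 0 members passed it through MEK5DD libraries alone. The test compared Hs-578T MEK5DD with MDA-MB-231 MEK5DD, a difference between lines and not an effect of MEK5DD alone. The rule used the parental controls, in which the members already differed between the lines (median -1.27, all tested genes -0.19). The test is therefore not free of the choice of members. By limma across all 13737 genes, 194 members (77.3%) were called lower in Hs-578T and 17 (6.77%) higher, by the same p and fold limits. Over all tested genes, 22.1% were called lower and 23.3% higher. The median difference was -2.08 over the members and -0.22 over all tested genes. Both Hs-578T libraries lay below both MDA-MB-231 libraries in 222 members (88.4%; 52.1% of all tested genes) and above them in 24 (9.56%; 35.4%). With median-ratio scaling of the libraries, which moved the median of all tested genes from -0.22 to 0.03, 185 members were called lower and 22 higher (16.3% and 30.1% of all tested genes). The 103 genes of the reverse combination went the other way, with 10 called lower (9.71%) and 72 higher (69.9%).

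Of the 194 members called lower, 186 (95.9%) also had a lower mean in Hs-578T than in MDA-MB-231 parental controls, against 97.7% of all tested genes called lower. Of the 17 called higher, 15 (88.2%) had a higher mean there, against 92.3%. The parental controls were used by the rule, which favours genes that are high in MDA-MB-231 and low in Hs-578T controls, so these shares are a description. The parts that the lines themselves and MEK5DD had in the difference were not tested. MAP2K5 RNA lay above parental controls by 3.77 in MDA-MB-231 MEK5DD libraries and by 0.50 in Hs-578T MEK5DD libraries, on the log2(RPKM + 0.5) scale. The level of MAP2K5 RNA thus differed between the lines as well.

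**Figure D5:**
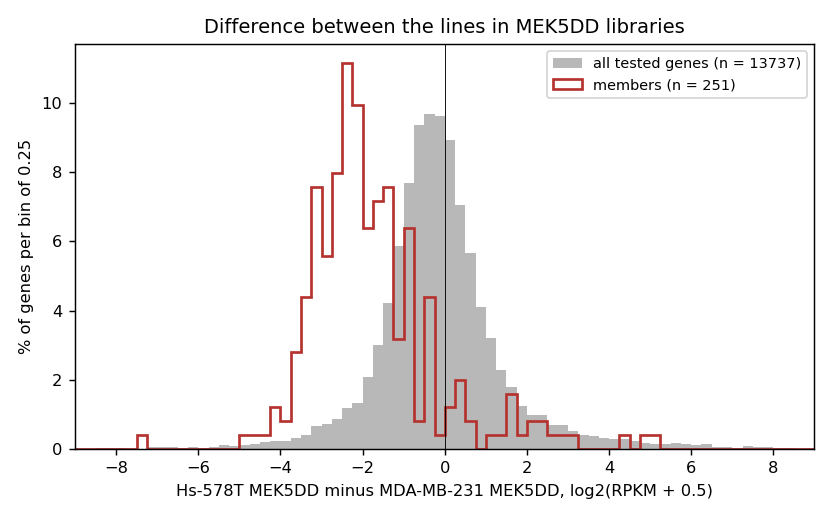
Share of genes (%) per bin of 0.25 in the difference between Hs-578T MEK5DD and MDA-MB-231 MEK5DD libraries, in log2(RPKM + 0.5), for 13737 tested genes (grey) and 251 members (red line). The members centre on a median of -2.08, left of the median of -0.22 over all tested genes.

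The counts differed between members in a cell division list and the others, although this difference itself was not tested. Of the 123, 114 (92.7%) were called lower and 0 higher, with a median of -2.38, and of the 128 others 80 (62.5%) were called lower and 17 higher, with a median of -1.38. Of the 123 tested cell division genes that are not members, 84 (68.3%) were called lower and 8 higher, with a median of -1.59. All 20 members of the cell cycle list were called lower. MKI67 differed by -3.83 (standard error 0.32, adjusted p = 3.9e-07, limma), CDC25A by -3.21 (standard error 0.11, adjusted p = 1.9e-10), AURKA by -2.91 (standard error 0.11, adjusted p = 2.9e-10), and MCM4 by -1.41 (standard error 0.09, adjusted p = 3.6e-08).

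By role, all 12 kinesins, all 17 mitotic kinases, cyclins and phosphatases, all 15 spindle and cytokinesis genes, all 10 centriole genes, all 14 replication genes and all 8 chromatin genes among the members were called lower. Exceptions lay in other roles, where 12 of 14 kinetochore and checkpoint members, 6 of 7 CENP members, 7 of 9 condensin, cohesin and topoisomerase members and 13 of 17 repair members were called lower. With genes that are not members included, 36 of 37 replication, 18 of 18 spindle, 14 of 14 centriole and 12 of 15 chromatin genes were called lower. The same held for 21 of 22 mitotic kinase, cyclin and phosphatase genes, 19 of 34 kinesins and 22 of 26 kinetochore genes. It also held for 14 of 19 CENP, 12 of 16 condensin and 21 of 31 repair genes, against 22.1% of all tested genes. SMC4 (-0.31, adjusted p = 0.082, limma) and TOP2B (-0.45, adjusted p = 0.10) were among the members that did not pass, and are named after their values were seen. Their MEK5DD libraries, at 95.3 and 94.5 against 65.7 and 88.7 for SMC4, and at 54.3 and 52.0 against 30.2 and 49.99 for TOP2B, did not overlap but lay close.

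The lowest value among the members was that of ARHGDIB (ENSG00000111348.8, chr12:14942017-14961728), a gene expressed mainly in blood cells. It had 364 in both MDA-MB-231 MEK5DD libraries and 1.71 and 1.49 in Hs-578T MEK5DD, a difference of -7.44 (standard error 0.09, adjusted p = 1.2e-13, limma). ARHGDIB had 94.96 and 102 in MDA-MB-231 parental controls, 31.1 and 33.3 in ERK5-ko-labelled libraries, and 7.62 and 7.38, then 13.4 and 12.1 in the same groups of Hs-578T. The organic anion transporter gene SLCO4A1 (-4.99, standard error 0.14, adjusted p = 2.0e-11) and G0S2, which encodes an inhibitor of fat breakdown (-4.59, standard error 0.15, adjusted p = 7.0e-11), came next.

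The highest value was that of SCN3A, a neuronal sodium channel gene, with 0.0318 and 0.0276 in MDA-MB-231 MEK5DD and 13.6 and 19.97 in Hs-578T MEK5DD, a difference of 5.001 (standard error 0.17, adjusted p = 1.6e-10, limma). The MDA-MB-231 values rest on 3 reads in each library. TAGLN followed with 4.89 (standard error 0.15, adjusted p = 4.3e-11) and COL7A1 (chr3:48564073-48595267) with 4.30 (standard error 0.14, adjusted p = 6.8e-11). COL7A1 had 24.8 and 27.6, then 13.4 and 11.9, then 7.71 and 8.78 in MDA-MB-231, and 84.9 and 114, then 164 and 147, then 179 and 163 in Hs-578T. Of the 17 members called higher, the others were ATP10A, CACNG7, CES1, CPM, HAPLN3, HOMER2, IL11, KIRREL3, KRT81, SLAMF7, TMEM156, TMEM158, UCN2 and WDR72, and 0 of the 17 were in a cell division list.

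The comparisons of MEK5DD with parental libraries share the parental controls with the rule, so their values are given side by side and without a test. In MDA-MB-231 the median member difference between MEK5DD and parental libraries was 0.32 (all tested genes -0.01), and both MEK5DD libraries lay above both parental controls in 187 members (74.5%; 38.5% of all tested genes). In Hs-578T the median was -0.44 (all tested genes -0.08), and both lay below in 157 members (62.5%; 34.2%). Cell division members had medians of 0.36 and -0.59, and the other members 0.23 and -0.11. By library, the MDA-MB-231 medians were 0.36 for replicate 1 and 0.29 for replicate 2, and the Hs-578T medians were -0.57 and -0.29. Hs-578T MEK5DD was the group whose replicates differed most, with a median SD of 0.243 over the members against 0.154 over all tested genes.

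Single members departed from these medians. CDYL2 (1.80), ARHGDIB (1.88), TAGLN (1.47) and SLIT2 (1.47) were well above parental controls in MDA-MB-231 MEK5DD, whereas KRT81 (-3.18), MDFI (-1.79), COL7A1 (-1.61), SLCO4A1 (-1.44), CES1 (-1.20) and HLA-DPA1 (-1.16) were below them. In Hs-578T the same genes had -0.10 for CDYL2, -1.93 for ARHGDIB, 1.07 for TAGLN, 0.54 for SLIT2, 0.95 for KRT81, -0.33 for MDFI, 0.80 for COL7A1, -1.08 for SLCO4A1, 0.65 for CES1 and -0.24 for HLA-DPA1. ARHGDIB thus had opposite signs in the lines, and TAGLN and SLIT2 had the same sign.

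By position, chromosome 3 held 26 members among 770 tested genes (3.38%, against 1.83% overall). Chromosome 15 held a higher share (19 of 430, 4.42%), and chromosomes 4 (16 of 509, 3.14%) and 10 (16 of 518, 3.09%) held similar ones. Over all tested genes, the median difference in MDA-MB-231 was -0.26 on chromosome 3, -0.05 on chromosome 15, -0.01 on chromosome 4 and -0.11 on chromosome 10. On chromosome 3, genes that are not members also lay lower in ERK5-ko-labelled libraries of MDA-MB-231, with a median difference of -0.26 over 744 genes against -0.02 on the other chromosomes. Of the 26 members, 23 lay in windows of 10 Mb where the median of the genes that are not members was at or below -0.2. The share of the other chromosome 3 genes in such windows was not computed. Over all chromosomes, only windows with at least 20 tested genes that are not members were counted. There, 25 of 229 members and 597 of 12694 other tested genes lay in windows with such a median. Relative to the median of the genes of their chromosome that are not members, 199 of the 251 members and 9 of the 26 on chromosome 3 were past both thresholds. FANCD2, CDC25A, COL7A1, KIF15, ECT2, POLQ, SGOL1 and TOP2B are among the 26. What this shift of the surrounding genes contributed to the values of the 26 members was not tested.

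Of the 251 members, 103 overlap no other listed gene, 58 overlap one on the same strand and 110 one on the opposite strand, so that reads in the shared bases are uncertain. Beside the HLA-DP and keratin genes, this or a near-identical copy concerns many members. Examples are APOBEC3A and APOBEC3B, ARHGAP11A and ARHGAP11B, FAM72B, SAA1 and BUB1B, which overlaps PAK6. ARHGAP19 and ARHGAP19-SLIT1, both members, overlap on the same strand. Among the genes described above, TAGLN, SLC4A8, FANCD2, CENPF, CDC25A, SCN3A, G0S2, SLCO4A1 and ADAMTS17 overlap a gene on the opposite strand.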

How the data were processed

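The 12 RNA libraries came from MDA-MB-231 or Hs-578T cells, with 2 for each of 6 groups set by cell line and label. The authors deposited RPKM values for 32152 genes, in which reads are scaled to gene length and to the library total. The submitters' processing notes name bcl2fastq, Trimmomatic 0.32, TopHat2 2.1.1, R 3.3.1, DESeq2 1.12.4 and the build GRCh38, and the counting tool is not given in the sources used here. Whole reads were recovered from the values of all 32152 genes within 0.001 reads, which gave the library totals (0 of 500 genes came out whole with totals 1% off).

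The members and lists were chosen with earlier results of these data known. Protein-coding genes were tested where 2 or more libraries had an RPKM of 0.5 or above. Limma 3.58.1 (R 4.3.3) fitted 6 group means to log2(RPKM + 0.5), with 6 residual degrees of freedom and a trended variance, and p values were adjusted per comparison (Benjamini-Hochberg). The added 0.5 makes folds of weakly expressed genes too small. A call needed an adjusted p below 0.05, with a fold above 1.5 for higher and below 0.5 for lower. The fit was tested on simulated data. Genes were named where they were among the 12 members with the largest value of the smaller absolute difference (at a mean RPKM of at least 1 and with no overlap of parental and ERK5-ko replicates), lay nearest the threshold, stood at either end of the MEK5DD comparison or belonged to a list fixed with the design. Genes picked out otherwise are said to be so. Alternatives changed the pseudocount, filter, scaling, gene types, thresholds, fit and libraries kept. Motifs were searched on both strands of RefSeq promoter windows. Python 3.11.15 with pandas 2.3.3, numpy 2.4.6 and matplotlib 3.10.9 did the rest.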

Additional observations from a re-analysis of the deposited data

Results flagged for a closer look

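The median member difference between MEK5DD and parental libraries was 0.32 for MDA-MB-231 and -0.44 for Hs-578T, and it drew notice because the 2 lines moved in opposite directions in every MEK5DD library. By library, it was 0.36 and 0.29 for MDA-MB-231 and -0.57 and -0.29 for Hs-578T, beside medians of -0.01 and -0.08 over all tested genes. The difference between the lines was not tested, since the parental controls were also used to choose the members.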

How the results depend on the processing

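The number of members depended most on the threshold, with 20 at a log2 threshold of 1 and 37 when each gene had also to be called by limma in both lines. It was 355 with a pseudocount of 0.1, 192 with a pseudocount of 1, 190 with median-ratio scaling, 205 with quantile normalization and 293 with all gene types, and 238 to 283 when 1 library was left out. Differences taken relative to the median of all tested genes of each chromosome, an alternative chosen after seeing the data, gave 205 genes, of which 196 were shared. In the MEK5DD comparison between the lines, members called lower numbered 185 to 216 and members called higher 17 to 23 over the alternatives, and 192 to 199 and 17 to 19 when 1 library was left out. Limma voom on the recovered reads called 201 lower and 20 higher. Without a fold threshold 216 were lower and 23 higher (47.0% and 31.1% of all tested genes). With median-ratio scaling the calls over all tested genes moved from 22.1% lower and 23.3% higher to 16.3% and 30.1%. The median difference between MEK5DD and parental libraries in MDA-MB-231 was 0.386 after quantile normalization, 0.303 to 0.386 over the alternatives and 0.289 to 0.356 when 1 library was left out. In Hs-578T it was -0.510 to -0.371 and -0.573 to -0.285, and it was -0.285 without MEK5DD replicate 1. Of 43 named members, 41 kept their call in the MEK5DD comparison under all 22 alternatives, SLC4A8 was newly called under 5, and SLIT2 lost its call under 3 (median-ratio scaling, quantile normalization and without Hs-578T MEK5DD replicate 1). The replicate numbers mark consecutive passages and nothing states that libraries of the same number were grown together. Deviations of same-numbered libraries correlated at 0.107 to 0.541 over the 6 pairs of groups, and a fit that took the replicate number as a block called 194 members lower and 17 higher. Depth limits members with 3 reads or fewer in a library, 0 to 11 per library, and with 2 libraries per group the spread rests on all 12.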
